A study of Mus musculus with 219 samples.

Results

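The genes described here are 9 transcripts that mouse embryos are known to switch on around the 2-cell stage, leaving out the Zscan4 genes: Zfp352, Tcstv1, Tcstv3, Tdpoz3, Tdpoz4, Usp17la, Usp17lc, Usp17le and Sp110. They were taken by symbol from the deposited count tables, where each symbol named 1 row, so that 9 of 32285 genes are reported, and each passed the filter on low counts in 2-cell embryos. All embryos had the genotype B6C3F1xCD1 and were made by intracytoplasmic sperm injection (ICSI) of oocytes from hormone-primed B6C3F1 females with frozen sperm of CD1 males. The sperm head was placed opposite the meiotic spindle (contralateral ICSI, the vegetal pole), beside it (ipsilateral ICSI, the animal pole, written isolateral in the labels) or at the equator (equatorial ICSI). Early 2-cell embryos were taken apart, and single blastomeres were sequenced with their pair known. After filtering there were 55 sister pairs, of which 21 were contralateral, 21 ipsilateral and 13 equatorial. Further embryos were grown to blastocysts, either from separated sisters (38 twin blastocysts of 19 pairs) or from undivided embryos (31 intact blastocysts). Every embryo came from ICSI and from the same cross, and none was fertilized naturally, so the values describe injected oocytes of this cross only.

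The mouse genome is first transcribed strongly at the 2-cell stage, while the stored maternal transcripts are being removed. A set of genes is transcribed in that window and then silenced, many of them in tandem arrays of near-identical copies or near endogenous retroviral repeats, and the same genes reappear in rare cells of embryonic stem cell cultures. Zscan4, a family of SCAN-domain zinc-finger proteins linked to telomere maintenance, is the usual marker of that window.

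Total counts ranged from 360474 to 2100561 in the 110 blastomeres, from 713410 to 2161062 in the twin blastocysts and from 234099 to 1254428 in the intact ones. Equatorial blastomeres were the shallowest, with a median total of 1108741 against 1297280 after contralateral and 1530273 after ipsilateral ICSI. No 2 libraries held identical counts. Maternal transcripts were a list of 8 genes (Gdf9, Bmp15, Dppa3, Zp2, Zp3, Nlrp5, Oosp1 and Btg4). They summed to 4510 to 7334 CPM (a library's counts scaled to a common total) in all 55 embryos. The 8 cumulus cell markers summed to 1.33 to 64.4 CPM, with Inha listed at 0. As groups, twin and intact blastocysts and 2-cell embryos each held counts of all 6 trophectoderm markers. The markers summed to 2994 to 3724 CPM in twin pairs, 2958 to 6377 in intact blastocysts and 31.1 to 216 in 2-cell embryos.

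Zfp352, Tcstv1, Tcstv3, Usp17lc and Sp110 were counted in each of the 110 blastomeres. Usp17la was counted in 98.2% of them, Tdpoz4 in 92.7%, Tdpoz3 in 84.5% and Usp17le in 76.4%. All 9 transcripts were found together in 71 blastomeres, 8 of them in 25 and 7 in the remaining 14. Together they took 0.0584% to 0.190% of the counts of a blastomere, with a median of 0.125%, compared with a median of 0.0252% for the 5 Zscan4 genes. Per length, as TPM (counts divided by exonic length and scaled to the same common total) averaged over the 55 embryos, Tcstv3 was the most abundant at 695 ± 204 (SD, n = 55), followed by Tcstv1 at 525 ± 137 and Zfp352 at 516 ± 103. Their mean TPM placed these 3 at 160, 251 and 260 among 24942 genes. Sp110 reached 163 ± 43.7 TPM, Usp17lc 117.02 ± 54.1, Usp17la 63.8 ± 38.1, Tdpoz3 56.3 ± 51.9, Tdpoz4 54.02 ± 40.1 and Usp17le 23.99 ± 21.5. In this order of levels the step from Zfp352 to Sp110 was larger than the SD of either gene, while no other pair of neighbours differed by more than the larger of their SDs.

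**Figure D1:**
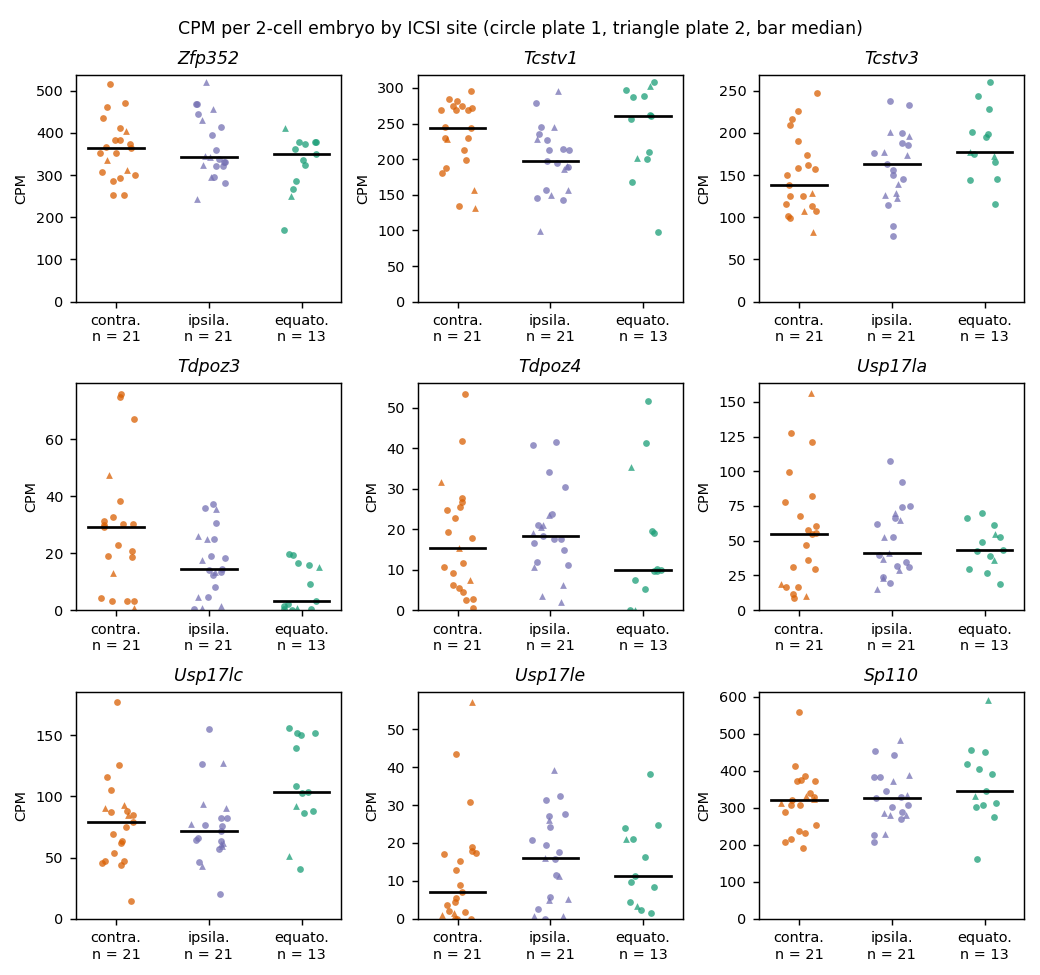
Level of each of the 9 genes (vertical axis, CPM of the added counts of both sisters, from 0) in every 2-cell embryo by ICSI site (horizontal axis; 21 contralateral, 21 ipsilateral and 13 equatorial embryos); circles are plate 1, triangles plate 2, and bars are medians. The Tdpoz3 median was 29.2 CPM after contralateral, 14.5 after ipsilateral and 3.35 after equatorial ICSI, whereas the embryos of the 3 sites covered overlapping ranges for every gene.

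Differences between ICSI sites were tested on the added counts of both sisters with the quasi-likelihood test of edgeR. The model held a term for the plate, and p-values were adjusted by Benjamini-Hochberg over all 13141 genes tested, with a threshold of 0.05. Of the 9 genes, 1 passed between contralateral and equatorial ICSI, where 13.2% of all genes passed (7.12% higher and 6.06% lower). None of the 9 passed between ipsilateral and equatorial ICSI, where 6.65% of all genes passed (3.43% higher and 3.22% lower), and 2 of the 9 had an unadjusted p under the threshold. With depth covariates the ipsilateral against equatorial calls were 60 higher and 1 lower, in place of 451 and 423. Between contralateral and ipsilateral ICSI edgeR called 0 genes of any kind (0% of all genes, and 0 with DESeq2), with 555 genes but none of the 9 at an unadjusted p under 0.05. A share of 1 in 9 is close to that of all genes. The median log2 difference of the 9 genes was -0.07 for contralateral minus equatorial ICSI, with the median of all genes at 0 to 2 decimals, and 0.14 against 0.01 for ipsilateral minus equatorial ICSI. Between the plates, which hold 42 and 13 of the embryos, edgeR called none of the 9 genes, with 0.419% of all genes called (0.114% higher and 0.304% lower in plate 2), 178 genes called by DESeq2 and none of the 9 at an unadjusted p under 0.05. Both comparisons with equatorial ICSI share the 13 equatorial embryos, so their values for a gene are not independent.

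**Figure D2:**
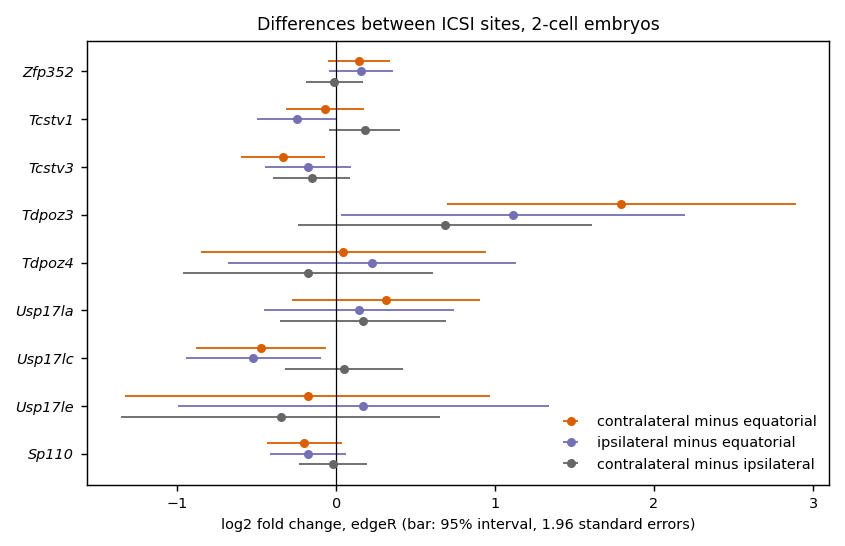
Log2 fold change between ICSI sites (horizontal axis, edgeR on added counts) for the 9 genes (vertical axis) in 2-cell embryos; points are estimates and bars are 95% intervals. The Tdpoz3 difference between contralateral and equatorial ICSI, 1.79, lies farthest from 0, and its interval runs from 0.70 to 2.89.

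Tdpoz3 and Tdpoz4 belong to the TRAF and BTB/POZ domain proteins, a family related to SPOP, the adaptor that brings substrates to cullin-3 ubiquitin ligases. They lie beside each other on the plus strand of chromosome 3, Tdpoz3 at chr3:93826020-93827117 and Tdpoz4 at chr3:93796398-93797510 (GRCm38). Their coding sequences were 77.3% identical over 1094 aligned bases. The first 120 coding bases are shown to let the copies be compared (GENCODE M21 transcripts of GRCm38, both on the plus strand; capitals mark the 31 bases that differ).
Tdpoz3: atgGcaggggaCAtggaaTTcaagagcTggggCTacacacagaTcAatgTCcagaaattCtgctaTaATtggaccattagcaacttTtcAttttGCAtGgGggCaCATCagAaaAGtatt
Tdpoz4: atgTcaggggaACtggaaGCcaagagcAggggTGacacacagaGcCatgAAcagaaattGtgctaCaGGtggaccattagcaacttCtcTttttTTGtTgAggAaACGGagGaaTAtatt

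Tdpoz3 was the 1 gene of the 9 that edgeR called between sites. Its level was 0.687 CPM at the lowest, 29.2 at the median and 76.0 at the highest of the 21 contralateral embryos. The 21 ipsilateral embryos ran from 0.377 through a median of 14.5 to 37.1 CPM. In the 13 equatorial embryos it ran from 0 through 3.35 to 19.7 CPM. Each site held embryos with hardly any Tdpoz3, and the sites differed both in their medians and in their highest embryos. The highest contralateral embryos lay above every equatorial one. The contralateral level was 3.47-fold the equatorial level (log2 1.79, SE 0.56, 95% interval 0.70 to 2.89, edgeR adjusted p = 0.0226). The ipsilateral level was 2.16-fold the equatorial one (log2 1.11, SE 0.55, 95% interval 0.03 to 2.19), which did not pass (edgeR adjusted p = 0.250). The contralateral and ipsilateral levels differed by 0.68 on the log2 scale, with an interval from -0.24 to 1.61 that includes 0.

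The Tdpoz3 call between contralateral and equatorial ICSI held in plate 1 alone, with 18 contralateral and 11 equatorial embryos (log2 1.90, edgeR adjusted p = 0.0140), and plate 2 held 3 and 2 embryos of these sites. It was also made by the rank-sum permutation test on TPM (adjusted p = 0.0152), in which a contralateral embryo lay above an equatorial one with a probability of 0.821. With library size and the number of detected genes as covariates the difference was as large (log2 1.90) but its error grew (SE 0.67), and the call was lost (edgeR adjusted p = 0.0614). Equatorial libraries were the shallowest.

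At least 1 read of Tdpoz3 was counted in 38 of 42 contralateral blastomeres (90.5%), in 38 of 42 ipsilateral ones and in 17 of 26 equatorial ones (65.4%). Thinned to 360474 counts per library, the expected shares were 85.4%, 82.4% and 53.2%. Both sisters held the transcript in 5 of 13 equatorial embryos, 1 sister in 7 and neither in 1, compared with both in 17 of 21 embryos at each of the other sites. Sisters share an embryo, so no interval is given for these shares of blastomeres. Of the 999 stretches of 100 bases in Tdpoz3 transcripts, 467 also occur in Gm4982, which has no row in the count table, so the split of reads between these copies is uncertain.

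For Tdpoz4 no difference between sites passed the test. Its level ran from 0.612 through a median of 15.5 to 53.4 CPM after contralateral, from 2.03 through 18.4 to 41.5 after ipsilateral and from 0 through 10.0 to 51.7 after equatorial ICSI. The 3 ranges covered each other almost fully, and the wide equatorial range included both the embryos without any count and 1 of the highest values. The contralateral minus equatorial difference was 0.04 on the log2 scale (SE 0.46, 95% interval -0.85 to 0.94). It was counted in 20 of 26 equatorial blastomeres and in 41 of 42 blastomeres of each other site.

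Zfp352 encodes a C2H2 zinc-finger protein that is used as a marker of the 2-cell window. It lies on the plus strand of chromosome 4 (chr4:90218820-90225702, GRCm38), and 14 of its 2177 transcript stretches of 100 bases occur in another gene, the lowest share among the 9. Contralateral embryos ran from 252 through a median of 363 to 517 CPM, ipsilateral ones from 243 through 342 to 521 and equatorial ones from 170 through 350 to 411. The medians lay close together, and the lowest value of all belonged to equatorial embryo 36. The log2 difference was 0.14 (SE 0.10, 95% interval -0.05 to 0.34) for contralateral and 0.16 (SE 0.10, -0.05 to 0.36) for ipsilateral against equatorial ICSI, neither of which passed (edgeR adjusted p = 0.401 and 0.431).

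The promoter of Zfp352 is printed because its sequence sets it apart from the other promoters. The 250 bases before the RefSeq start (GRCm38.p6, plus strand, chr4:90218570-90218819) hold 9 copies of TAATCC, the core that bicoid-class homeodomain proteins such as OTX2 recognise, in a tandem repeat (capitals mark TAATCC, searched on both strands).
Zfp352: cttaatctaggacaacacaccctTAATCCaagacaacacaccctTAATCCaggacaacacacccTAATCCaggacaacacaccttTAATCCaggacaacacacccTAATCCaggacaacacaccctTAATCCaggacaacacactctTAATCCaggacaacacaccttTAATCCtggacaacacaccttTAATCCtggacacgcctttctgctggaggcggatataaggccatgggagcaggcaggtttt
Of 32851 RefSeq promoters, each searched over the 250 bases before its start, 6.25% hold at least 1 TAATCC and 1 (0.00304%) holds 5 or more, which is that of Zfp352. The motif was chosen after the sequence had been read, and a match is a description, not a binding site. RefSeq promoters were found for 5 of the 9 genes. TAATCC occurs 2 times in the distal and 1 time in the proximal promoter of Sp110 and not in those of Tdpoz4, Usp17la and Usp17lc.

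Tcstv1 and Tcstv3 belong to the 2-cell-stage variable group, small proteins whose overexpression in embryonic stem cells has been tied to telomere lengthening. They lie on chromosome 13, Tcstv1 on the minus strand at chr13:119893388-119894785 and Tcstv3 on the plus strand at chr13:120316878-120318178 (GRCm38). Their coding sequences were 94.5% identical over 507 aligned bases, and 50 stretches of 100 bases occur in both, so a part of their reads could be assigned to either. A stretch of 120 coding bases is shown as an example (GENCODE M21 transcripts of GRCm38; capitals mark the 7 bases that differ).
Tcstv1: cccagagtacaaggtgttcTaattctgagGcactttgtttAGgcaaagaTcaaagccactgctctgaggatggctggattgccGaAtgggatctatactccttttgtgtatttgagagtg
Tcstv3: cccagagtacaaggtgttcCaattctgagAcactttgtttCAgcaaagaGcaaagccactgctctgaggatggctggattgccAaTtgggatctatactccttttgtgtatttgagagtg

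Tcstv3 ran from 83.1 through a median of 138 to 248 CPM after contralateral, from 77.5 through 163 to 238 after ipsilateral and from 115.5 through 177 to 260 after equatorial ICSI. The equatorial embryos lay highest by their median, within ranges that overlapped over most of their length. The contralateral minus equatorial difference was -0.34 on the log2 scale (SE 0.13, 95% interval -0.60 to -0.07) and did not pass in edgeR (adjusted p = 0.0861). The rank-sum permutation test on TPM, under which 16% of all genes passed (6.13% higher and 9.87% lower), did call it lower (adjusted p = 0.0475). Within plate 1 the edgeR difference was -0.25 (adjusted p = 0.276).

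Tcstv1 ran from 130.8 through a median of 243 to 295 CPM after contralateral, from 98.6 through 197 to 296 after ipsilateral and from 97.2 through 261 to 308 after equatorial ICSI. Here the ipsilateral median was the lowest of the 3. The difference was -0.07 (SE 0.12) for contralateral and -0.25 (SE 0.13, with a 95% interval that ended just below 0) for ipsilateral against equatorial ICSI (edgeR adjusted p = 0.794 and 0.264).

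Usp17la, Usp17lc and Usp17le are copies of the USP17 (DUB) family of deubiquitinating enzymes on chromosome 7. Usp17la (chr7:104857009-104862667, plus strand) and Usp17le (chr7:104768049-104777470, minus strand) lie close to each other, and Usp17lc (chr7:103415072-103419880, plus strand, all GRCm38) lies farther off. The 3 coding sequences were 93.2% to 94.4% identical to each other. A stretch of 120 coding bases of each is shown, because it lets the spacing of the bases that tell the copies apart be seen (GENCODE M21 transcripts of GRCm38; capitals mark the 9 positions at which the 3 are not all alike).
Usp17la: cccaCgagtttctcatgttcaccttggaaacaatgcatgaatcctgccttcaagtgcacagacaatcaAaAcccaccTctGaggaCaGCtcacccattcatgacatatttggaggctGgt
Usp17lc: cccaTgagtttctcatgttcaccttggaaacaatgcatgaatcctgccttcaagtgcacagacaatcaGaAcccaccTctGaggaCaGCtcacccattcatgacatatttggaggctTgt
Usp17le: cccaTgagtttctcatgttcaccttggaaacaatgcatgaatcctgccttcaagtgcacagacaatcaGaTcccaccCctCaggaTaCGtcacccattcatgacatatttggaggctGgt
Among these 3 copies, counts of Usp17lc are the least certain, since 745 of its 2304 transcript stretches of 100 bases also occur in Usp17ld. For Usp17la 98 of 2557 and for Usp17le 156 of 1897 stretches occur in another gene.

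Usp17lc ran from 14.5 through a median of 79.2 to 178 CPM after contralateral, from 19.99 through 72.1 to 155 after ipsilateral and from 40.6 through 104 to 156 after equatorial ICSI. The equatorial embryos were again highest by their median, although the highest embryo of all was contralateral. The difference from equatorial ICSI was -0.48 (SE 0.21, 95% interval -0.89 to -0.07) for contralateral and -0.52 (SE 0.22, -0.95 to -0.10) for ipsilateral embryos, and neither passed in edgeR (adjusted p = 0.125 and 0.143). Without contralateral embryo 12, which held the highest value, the first of these passed (log2 -0.56, edgeR adjusted p = 0.0475). The rank-sum permutation test on TPM called it too (adjusted p = 0.0486). For ipsilateral against equatorial ICSI that test called none of the 9 genes, with 10.8% of all genes called (4.61% higher and 6.23% lower), and 2 of the 9 had an unadjusted p under the threshold.

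For Usp17la and Usp17le no difference between sites passed the test. Usp17la ran from 8.57 through a median of 54.7 to 156 CPM after contralateral, from 14.9 through 41.2 to 107.5 after ipsilateral and from 18.6 through 43.2 to 69.8 after equatorial ICSI. The contralateral range was the widest at both ends. The contralateral minus equatorial difference was 0.31 (SE 0.30, 95% interval -0.28 to 0.90, edgeR adjusted p = 0.579). Usp17le, the rarest of the 9, ran from 0 through a median of 7.10 to 57.1 CPM after contralateral, from 0 through 15.9 to 39.2 after ipsilateral and from 1.54 through 11.2 to 38.3 after equatorial ICSI. It was counted in 22 of 26 equatorial, 32 of 42 contralateral and 30 of 42 ipsilateral blastomeres. Its contralateral minus equatorial difference of -0.18 had an interval from -1.33 to 0.97.

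Sp110 encodes a nuclear body protein of the SP100 family that interferons induce in immune cells. It lies on the minus strand of chromosome 1 (chr1:85576899-85598817, GRCm38), and 1235 of its 7064 transcript stretches occur in other genes, most of them in Gm16026, which has no row in the table. Contralateral embryos ran from 190 through a median of 320 to 558 CPM, ipsilateral ones from 207 through 327 to 484 and equatorial ones from 160 through 345 to 592. The equatorial group held both the lowest and the highest embryo. The differences of -0.20 (SE 0.12, 95% interval -0.44 to 0.04) for contralateral and -0.18 (SE 0.12) for ipsilateral against equatorial ICSI did not pass (edgeR adjusted p = 0.301 and 0.451).

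Of the 5 Zscan4 genes, by comparison, edgeR called Zscan4d and Zscan4f higher at both poles than at the equator, and Zscan4b, Zscan4c and Zscan4e at neither. Zscan4f was 4.19-fold higher after contralateral and 3.62-fold higher after ipsilateral ICSI (edgeR adjusted p = 0.00262 and 0.0123), and Zscan4d was 2.04- and 1.81-fold higher (0.00616 and 0.0415). With depth covariates the contralateral calls of both held, and the ipsilateral ones were lost for Zscan4f (edgeR adjusted p = 0.187) and Zscan4d (0.424). The ipsilateral call of Zscan4d was also lost in plate 1 alone (0.0606), at a mitochondrial share of at most 2% (0.0827) and over all 62 pairs (0.112). Of all genes, 7.12% were higher and 6.06% lower after contralateral than after equatorial ICSI, and 3.43% and 3.22% after ipsilateral ICSI. Among 32 further genes of the 2-cell program, 28 were tested. Of these, 3 were higher and 2 lower after contralateral and 2 higher and 1 lower after ipsilateral than after equatorial ICSI. Those with the smallest adjusted p were Kdm5b, an H3K4 demethylase (log2 -0.73), Gm8300 (0.62) and Dppa2, a chromatin-binding activator of early genes (0.50), for contralateral ICSI, and Dppa2 (0.58), AF067063 (-0.47) and Arg2, a mitochondrial arginase (0.65), for ipsilateral ICSI.

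Sisters of an embryo were compared by the intraclass correlation of their log2(CPM + 1) values over the 55 pairs, which is 1 when sisters are equal and near 0 when they are no more alike than blastomeres of different embryos. The coefficients are descriptions over these pairs, and sisters share the embryo and its plate. Over 11438 genes counted in at least 55 of the blastomeres, the median was 0.185. Sp110 reached 0.739, above 99.6% of genes. Its sisters differed by a median of 0.16 on the log2 scale, and 1 of 55 pairs differed by more than 2-fold. Tdpoz3 followed with 0.525 (above 93.9% of genes), then Tcstv3 with 0.479, Usp17lc with 0.462, Tcstv1 with 0.430, Tdpoz4 with 0.388 and Zfp352 with 0.324. These 7 lay above the gene median, whereas Usp17la (0.139) and Usp17le (0.061) lay below it. Over all 62 pairs Zfp352 (0.070) fell below the gene median of 0.132 and Usp17la (0.137) lay just above it.

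A high coefficient did not mean that sisters held like amounts. Tdpoz3 sisters differed by more than 2-fold in 31 of 55 pairs, and in equatorial embryo 71 they held 39.1 and 0 CPM. Usp17le sisters differed that much in 40 pairs, Usp17la sisters in 27 and Tdpoz4 sisters in 21, all counted on CPM + 1. The mean unsigned log2 difference between sisters was 1.46 for Tdpoz3, 1.43 for Usp17la and 1.27 for Tdpoz4, near the gene median of 1.20. For Usp17le it was 2.26, higher than for 96.5% of genes. The other members lay below that median. Zfp352 sisters differed by more than 2-fold in 3 pairs, the widest being ipsilateral embryo 30 with 573 and 245 CPM, while its coefficient was moderate. Within contralateral, ipsilateral and equatorial embryos the coefficient of Tdpoz3 was 0.506, 0.530 and 0.275, against 0.525 over all sites, whose Tdpoz3 levels differ. Within none of the 3 did Tdpoz3 come second among the 9 genes. The coefficient of Zfp352 was 0.395, 0.090 and 0.599. The coefficient of Sp110 was 0.635, 0.778 and 0.851 within contralateral, ipsilateral and equatorial embryos. That of Usp17la was 0.538, 0.021 and -0.380 in the same order, and that of Tcstv3 was 0.524, 0.637 and -0.021. For the unsigned difference between sisters, the permutation test between sites called none of the 9 genes and 0 of 11438 genes in any of the 3 comparisons (0%), with 950, 962 and 560 genes but 0 of the 9 at an unadjusted p under 0.05.

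**Figure D3:**
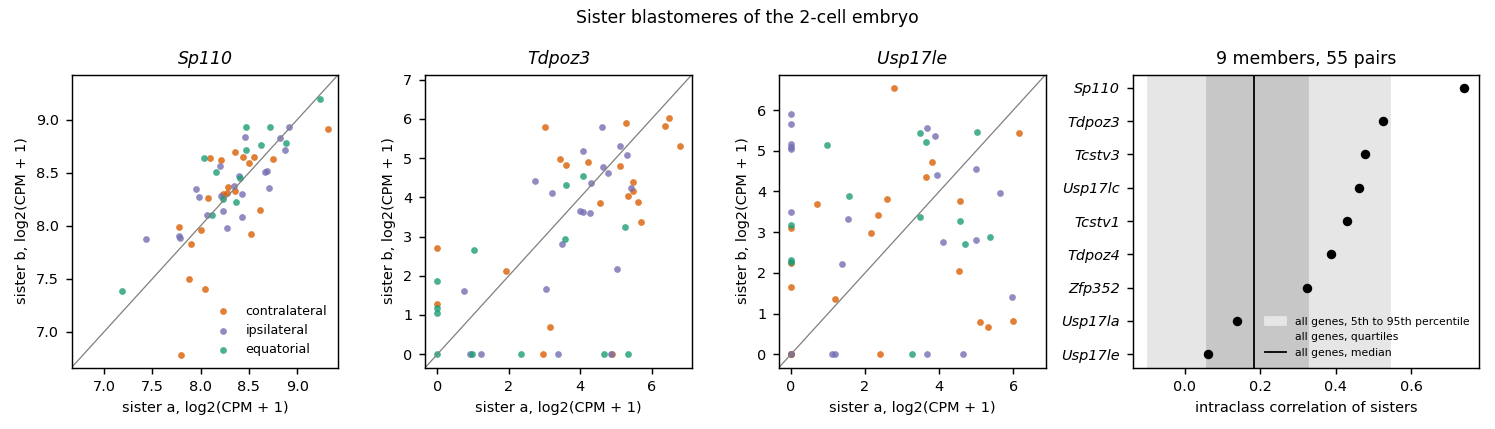
Sister a against sister b (log2(CPM + 1), line of equality in grey) for Sp110, Tdpoz3 and Usp17le over 55 pairs coloured by ICSI site, and, at the right, the intraclass correlation of the 9 genes against that of 11438 genes. Sp110 sisters follow the line (0.739), whereas Usp17le shows many pairs with a transcript in 1 sister alone (0.061).

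The levels were then set against the summed CPM of the 5 Zscan4 genes over the 55 embryos. Points share a library, its depth and its composition, and the coefficients are given without p-values. Tdpoz3 had the highest coefficient of the 9 (Spearman's rho 0.710, Pearson's r on log2(CPM + 1) 0.501), and 23 of 13141 genes had a higher rho. It was 0.783 within contralateral and 0.840 within ipsilateral embryos, and -0.148 within the 13 equatorial embryos. Without the 2 embryos farthest from the median Zscan4 level it was 0.726. Tdpoz3 correlated less with the total count of the embryo (rho 0.157) and with its detected genes (0.265).

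Usp17la came next (rho 0.517, r 0.413, higher than 96.7% of genes), again higher within contralateral (0.560) and ipsilateral (0.639) than within equatorial embryos (0.181). The differences between sites were not tested. Usp17le had a rho of 0.309, Zfp352 of 0.274 and Tdpoz4 of 0.270. For Zfp352 the relation rested partly on equatorial embryo 36 and contralateral embryo 12, since its r fell from 0.415 to 0.180 without the 2 farthest. Over all sites Tcstv1 (-0.023), Tcstv3 (-0.201), Usp17lc (-0.214) and Sp110 (-0.233) had coefficients below 0. These signs did not hold within every site. Within contralateral, ipsilateral and equatorial embryos Sp110 had -0.490, -0.156 and 0.566, and Tcstv3 -0.377, 0.182 and 0.165. In the same order Usp17lc had -0.218, 0.139 and 0.220, and Tcstv1 0.075, 0.131 and 0.324. The sum of the 9 genes had a rho of 0.068, against a gene median of 0.006, and of -0.019 within contralateral, 0.449 within ipsilateral and 0.423 within equatorial embryos.

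**Figure D4:**
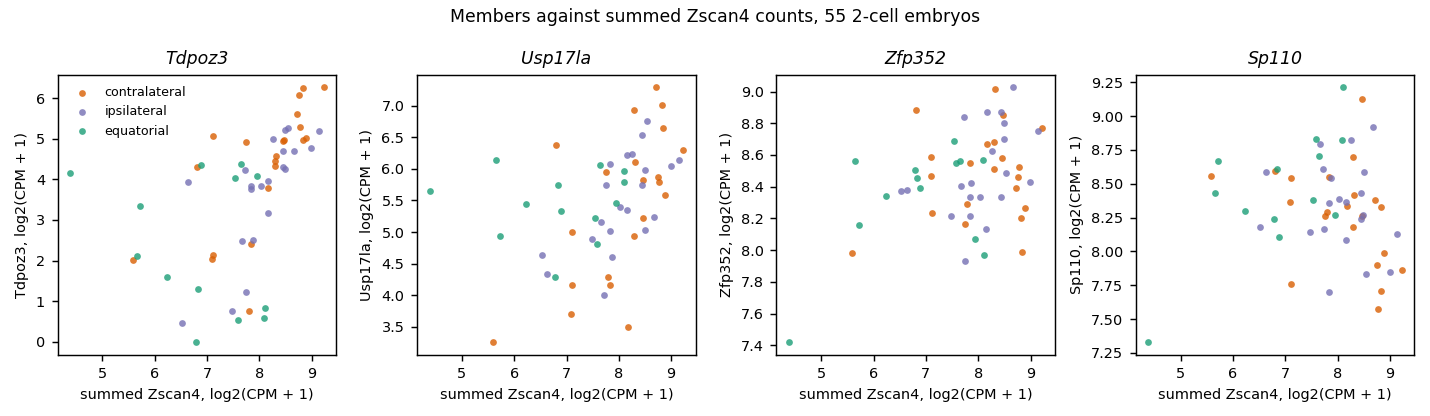
Tdpoz3, Usp17la, Zfp352 and Sp110 (vertical axis) against the summed Zscan4 level (horizontal axis), both as log2(CPM + 1), in 55 embryos coloured by ICSI site. Over all sites Tdpoz3 rises with Zscan4 (rho 0.710) and Sp110 does not (-0.233). Within equatorial embryos alone rho is -0.148 for Tdpoz3 and 0.566 for Sp110. The point farthest left is equatorial embryo 36.

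Among themselves the 9 genes formed 36 pairs with a median rho of 0.185, and 11 pairs lay above 0.3. Usp17la and Usp17le, close together on chromosome 7, had the highest value (0.652) although 3 stretches of 100 bases occur in both, and each was the gene closest to the other among 13141. Usp17la and Usp17lc, equally alike in coding sequence, had a rho of -0.004. The 208 bases before the Usp17la start are 95.2% identical to the aligned bases of Usp17lc, and both are printed to show where these differ although the levels did not move together (RefSeq, GRCm38.p6, plus strand; chr7:104856808-104857015 and chr7:103416446-103416653; capitals mark the 10 bases that differ).
Usp17la: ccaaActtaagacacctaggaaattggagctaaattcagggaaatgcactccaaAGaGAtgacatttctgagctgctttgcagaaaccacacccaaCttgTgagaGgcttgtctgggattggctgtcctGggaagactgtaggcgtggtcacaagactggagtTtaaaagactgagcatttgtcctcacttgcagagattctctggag
Usp17lc: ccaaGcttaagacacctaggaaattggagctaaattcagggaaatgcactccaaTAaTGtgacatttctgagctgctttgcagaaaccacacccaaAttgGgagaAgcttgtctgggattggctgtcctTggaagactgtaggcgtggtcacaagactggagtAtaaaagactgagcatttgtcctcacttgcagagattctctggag
TATAAA occurs 1 time in the Usp17lc promoter and not in that of Usp17la, and in 12.4% of all promoters.

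Tcstv3 and Sp110, on different chromosomes, had the second highest rho (0.646), followed by Tdpoz3 with Usp17la (0.538), Tcstv1 with Tcstv3 (0.495) and Tdpoz3 with Tdpoz4 (0.477). The lowest was Tdpoz3 with Sp110 (-0.248). The 5 other genes whose pattern over the 55 embryos was most like that of the summed members were AF067061 (rho 0.689), Gm21762 (0.659), BC147527 (0.644), Gm21731 (0.639) and D13Ertd608e (0.631). All 5 lie on chromosome 13 between positions 119836006 and 120308779. Tcstv1 lies inside this region and Tcstv3, which starts at 120316878, just beyond it. Both Tcstv genes are part of the sum that the 5 genes were matched to. The gene most like each single member was Gm10696 for Tdpoz3 (0.723), Slc1a5 for Sp110 (0.745), Kif2c for Tcstv3 (0.690), Calr for Usp17lc (0.649), Nop16 for Zfp352 (0.635), Gm21761 for Tcstv1 (0.631) and Kpna2 for Tdpoz4 (0.568).

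In blastocysts 8 of the 9 transcripts were all but gone. Tdpoz3, Usp17la and Usp17le had 0 counts in all 69 blastocysts, which allows a share of blastocysts with a count of up to 4.35% (3 of 69). That limit takes the blastocysts as independent, although the twins of a pair share an embryo. Set against the floor of 3 counts over the 65761549 counts of all blastocysts, the 2-cell mean was at least 1124-fold higher for Usp17la, at least 422-fold for Tdpoz3 and at least 316-fold for Usp17le. Zfp352 had 4 counts in 3 intact blastocysts, so that the 2-cell mean was 5858-fold higher (95% counting interval 2288 to 21502). Counting intervals and floors cover counting error only, since reads without molecular identifiers are not independent molecules. Tcstv1 had 11 counts in 4 blastocysts (1327-fold, 742 to 2659), Tcstv3 18 counts in 3 (594-fold, 376 to 1003), Usp17lc 4 counts in 1 (1399-fold, 546 to 5134) and Tdpoz4 5 counts in 2 (238-fold, 101.8 to 732). Usp17lc was thus absent from all intact blastocysts and seen in 1 twin.

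The counts of these 5 genes lay in 10 blastocysts, of which 7 held 1 of the genes and 3 held 2. Each library with Zfp352 or Usp17lc held no other of the 5. An intact equatorial blastocyst held 11 of the 18 Tcstv3 counts and 1 of Tcstv1, an equatorial twin held 3 of Tcstv3 and 1 of Tcstv1, and another equatorial twin held 4 of Tcstv3 and 3 of Tdpoz4. None of the blastocysts with a count of these 5 genes held a Zscan4 count. Only 1 of the 69 blastocysts, an intact one, held a Zscan4 count at all, so an overlap could hardly be seen. Between intact blastocysts and 2-cell embryos all 9 genes were lower in edgeR, where 84.9% of all 12645 genes tested passed and 49.1% passed as lower, and the largest adjusted p among them was 5.41e-15, for Usp17le. Since the genes were chosen as transcripts of the 2-cell stage, their common direction is not a result. The column names of the blastocysts carry no plate, and all were taken as plate 2. In plate 2 alone 5 of the 9 could be tested and all 5 were lower, where 7778 of 10292 genes were called and 3880 of them were lower. Genes with few or no counts in intact blastocysts passed the filter on low counts through the 2-cell embryos. Their direction was therefore fixed in both fits, and the plate 2 fit is no check on it. A blastocyst is a whole embryo of many cells, and fewer cells with a transcript cannot be told apart from less of it per cell.

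**Figure D5:**
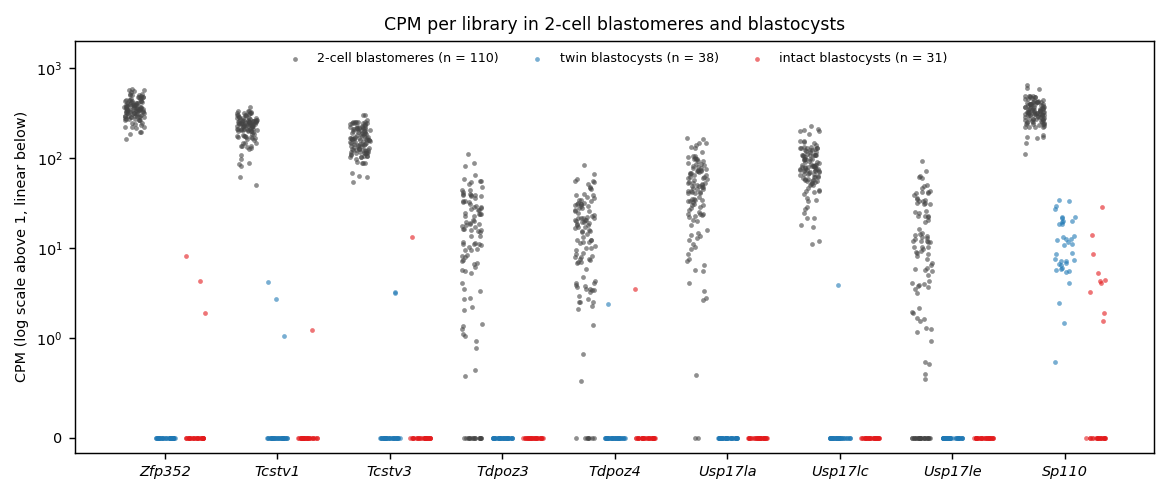
CPM of the 9 genes (vertical axis, log scale above 1 and linear below) in 110 blastomeres of 2-cell embryos, 38 twin blastocysts and 31 intact blastocysts, 1 point per library. Sp110 is the gene that stays above 0 in all 38 twins, whereas Tdpoz3, Usp17la and Usp17le lie at 0 in all 69 blastocysts.

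Sp110 was the exception, most clearly in twins. It had 626 counts in 48 of 69 blastocysts. The 2-cell mean of 333 ± 86.5 CPM (SD, n = 55) was 35.01-fold the pooled blastocyst level (95% counting interval 32.4 to 37.9). The ratio was 26.1 for twins (24.03 to 28.4) and 106.9 for intact blastocysts (84.4 to 137), both outside the pooled interval. These counting intervals leave out the spread between embryos, so they do not test a difference between twin and intact blastocysts. Of the 69 Sp110 counts in intact blastocysts, 33 lay in 1 equatorial blastocyst, so the intact ratio depends heavily on that library. Between intact blastocysts and 2-cell embryos the edgeR log2 difference of Sp110 was -7.20. In the other genes it ran from -7.01 for Tdpoz4 to -11.2 for Tcstv1. These held from 0 counts (Tdpoz3) to 11 counts (Tcstv3) in intact blastocysts. Their values thus lie near the floor and do not rank the sizes of the falls. All 38 twins, both of each of the 19 pairs, held Sp110, whereas 10 of 31 intact blastocysts did (32.3%, 95% exact interval 16.7 to 51.4%). The 19 twin pairs, with both twins added, ran from 5.00 through a median of 12.4 to 24.1 CPM, and the 31 intact blastocysts from 0 through a median of 0 to 28.8 CPM. Most intact blastocysts lay below every twin pair, but the ranges overlapped, and the highest intact blastocyst, an equatorial one, lay above all pairs. Sp110 did not pass the filter on low counts between twin and intact blastocysts, where edgeR called 3967 of 9379 genes (42.3%, with 20.4% higher and 21.9% lower in twins). In the fit without that filter it was higher in twins (log2 2.53, SE 0.52, edgeR adjusted p = 8.51e-05), with 27.7% of 23034 genes called and 15% called higher. Zfp352 was called lower there (adjusted p = 0.0167) on its 4 counts in intact blastocysts and 0 in twins.

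Intact libraries were shallower, with a median total of 705837 against 1093478 counts in single twins, and the fit above added both twins of a pair. At the pooled twin level an intact library would hold 2.99 to 16.01 Sp110 counts, with a median of 9.01, and 21 of 31 held none. The maternal transcript list moved the same way, with a median of 555 CPM (330 to 683) in 19 twin pairs and 55.5 CPM (0 to 403) in 31 intact blastocysts, and with Btg4 at 0 in twins and Oosp1 at 0 in intact blastocysts. The sum does not show which genes of the list carry this. The parts of depth and of maternal transcripts in the Sp110 difference were not tested. Of 32 other genes of the 2-cell program, 7 passed the filter between twin and intact blastocysts. Of these, 4 were higher and none lower in twins, against 20.4% of all genes higher and 21.9% lower. The smallest adjusted p belonged to Dppa2 (log2 1.85), Dppa4, its partner (1.83), and Pramel6 (0.88). The 5 epiblast markers (Nanog, Sox2, Klf2, Fgf4 and Gdf3) summed to a median of 178 CPM (104 to 245) in twin pairs and 92.7 (2.61 to 179) in intact blastocysts. The trophectoderm and primitive endoderm lists had lower medians in twins. Within twins no difference of Sp110 between sites passed the test. The pairs had a median of 11.1 CPM after contralateral, 10.4 after ipsilateral and 19.1 after equatorial ICSI, and the log2 differences from equatorial ICSI were -0.56 (SE 0.40) and -0.50 (SE 0.39), with 0 of 10995 genes called (0% of all genes, 728 and 426 at an unadjusted p under 0.05, 6 and 1 by DESeq2).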

How the data were processed

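RNA of single blastomeres and blastocysts was made into full-length cDNA with a SMART-Seq kit and sequenced on 2 plates. According to the paper, a part of the blastomeres was sequenced paired-end and the rest, like all blastocysts, single-end. The authors trimmed the reads with Trimmomatic 039, aligned 100-base reads with STAR 2.7.10b to GRCm38 (SmartSeq mode, strand not used), and deposited whole-number counts per gene. How reads that match several genes were treated is not given in the sources used here. Both tables hold 32285 genes, in 125 blastomeres and 69 blastocysts. Of 150 labelled blastomeres, the others were not analysed here.

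CPM and TPM were computed here from the counts, with exonic lengths of GENCODE M21. Pairs with at least 9500 detected genes in both sisters were kept, and the embryo, with both sisters or twins added, was the replicate. The labels do not say how many females gave the oocytes, so p-values measure the spread between these embryos. Tests were edgeR 4.0.16 (TMM, filterByExpr, robust quasi-likelihood, plate as covariate in 2-cell embryos, ICSI site in the stage and twin comparisons) and rank-sum tests with 100000 permutations, 2-sided. Intervals of log2 differences are 95% normal intervals. Counting intervals are exact at 95%. In simulated counts, edgeR recovered 39.4% of 188 genes changed about 2-fold between contralateral and equatorial ICSI. Alternatives included DESeq2 1.42.0 and RLE factors. Python 3.11.15 was used for the rest. The 9 genes, the lists and the genes named (those with the smallest adjusted p or the closest pattern) were chosen with earlier results of these data known.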

Additional observations from a re-analysis of the deposited data

Results flagged for a closer look

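In 11 groups of 6 to 8 blastocyst embryos with a spread, 6 held an embryo whose gap to the others exceeded Dixon's 95% limit, which chance does in about 1 group in 20. A gene counted in 1 embryo of a group passes this limit by construction. In twins these were Tcstv1 in an ipsilateral pair (2.29 CPM), Usp17lc in another ipsilateral pair (2.04 CPM) and Tdpoz4 in an equatorial pair (1.10 CPM). In ipsilateral intact blastocysts they were Zfp352 in embryo 93 (1.88 CPM), Tdpoz4 in embryo 95 (3.50 CPM) and Sp110 in embryo 89 (4.25 CPM). In each of these 6 groups the other embryos held 0 counts of the gene.

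The 15 blastomeres outside the 55 pairs included values outside the range of the 110 used. They or their sisters had fewer than 9500 detected genes, or they lacked a sister. Those with a sister entered the alternatives over all 62 pairs. The lowest levels of Zfp352, Tcstv3 and Usp17lc (0 CPM each), Tcstv1 (22.7 CPM) and Sp110 (87.8 CPM) lay below the lowest of those used, and 3 values of Tcstv1 and 1 of Usp17lc lay above the highest. The 9 genes summed to 475 CPM in ipsilateral blastomere 27a (546842 counts, 8877 genes) and to 251 CPM in its sister 27b (1376410 counts, 11503 genes), whereas the lowest of those used had 584 CPM. Tcstv1 reached 455 CPM in ipsilateral blastomere 26a (199797 counts, 3020 genes), where 2 of the 9 genes were counted, and Usp17lc reached 295 CPM in equatorial blastomere 40b (10860 genes), which has no sister.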

How the results depend on the processing

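Of 317 alternatives for the log2 difference of 1 of the 9 genes, 297 kept direction and side of the threshold, 1 lost the call and 19 changed sign without a call on either side. The call lost was Tdpoz3 between contralateral and equatorial ICSI with depth covariates, where 0 of the 9 genes were called in place of 1 (1193 of 13141 genes in all), and the rank-sum test called 3 (2101 of 13137). Leaving out each of the 55 embryos (added after the data were seen) gave 1 to 2 calls among the 9, Tdpoz3 in each of 55 fits (log2 1.68 to 2.00) and Usp17lc in 1. All-gene counts moved by over 1.5 times without the filter (3930 contralateral and 2603 ipsilateral against equatorial, 1577 contralateral against ipsilateral, 1598 between plates, 17998 between stages, 6385 between twin and intact, 1 ipsilateral against equatorial in twins), at a mitochondrial share of at most 2% (1104 contralateral against equatorial), with depth covariates (61 ipsilateral against equatorial, 91 between plates), by rank-sum (1425 ipsilateral against equatorial) and by DESeq2 (178 between plates; 6, 1 and 1 between sites in twins, 1 in intact blastocysts). In plate 2 alone 5 of the 9 were tested and called between stages (7778 of 10292 genes in all), with a direction that the filter fixes. The cause of these moves was not tested, except that fits without the filter test more genes. The members' median sister coefficient, 0.430, was 0.287 over all 62 pairs, and rho of their sum with Zscan4 was 0.449 within ipsilateral and 0.423 within equatorial embryos. For detection by ICSI site, 94.6% of 990 combinations of gene and blastomere held a count, 91.7% after thinning and 92.2% with at least 3 counts. Per unshared 100-base stretch of transcripts, in place of exonic length, Tdpoz3 was at 116.2 TPM and lay above Usp17la (68.9), and Usp17lc was at 184. The comparison with stretches found once in the genome was not run. No paired analysis was possible because each embryo belongs to 1 ICSI site and embryo numbers are not shared between groups. The rarest of the 9 genes, Usp17le, had their widest interval between contralateral and equatorial ICSI, and its level of 14.4 ± 12.9 CPM (SD, n = 55) varied between embryos by about as much as its mean, so the shares of depth and of spread between embryos in that interval were not tested.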

Other observations

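Equatorial embryo 36 held the lowest summed level of the 9 genes (661 CPM, against a median of 1261 and a highest value of 1767) and the lowest summed Zscan4 level (19.9 CPM). It had the lowest level of Zfp352, Tcstv1 and Sp110 among the 55 embryos and no count of Tdpoz4, and blastomere 36a was the shallowest library used (360474 counts). The sites did not separate by the sum of the 9 genes, which had a median of 1203 CPM after contralateral, 1229 after ipsilateral and 1345 after equatorial ICSI.

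Within embryos, the sister with more Zscan4 held more Zfp352 in 33 of 55 pairs and more Tdpoz3 in 34, with 1 tie. The other members ran from 21 pairs (Usp17lc) to 31 (Tcstv3 and Usp17la), and the gene median was 27. The difference between sisters in Zfp352 had a rho of 0.369 with that in Zscan4, higher than for 93.8% of genes and the highest among the 9. For Tdpoz3, whose embryo level followed Zscan4 most closely, the same value was 0.153.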
